A study of Mus musculus with 6 samples.

Results

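The genes described here lie on mouse chromosome 5 between the albumin gene cluster and Spp1, with the zinc finger gene Zfp951 at the far end. The list holds 60 symbols, of which 59 had a row among the 34144 gene rows of the series (Thap6 was dropped), and 52 of these 59 had enough counts to be tested. The stretch was selected on the adjusted p-values of the knockout against wild-type comparison, because called genes gather there, and its members were listed whatever their own values. The calls, folds and adjusted p-values of members below therefore describe the choice and are not independent evidence of it. RNA was measured in testes of 6 mice of strain C57Bl/6J aged 3 months, 3 wild type and 3 of genotype Nsun7-/-, with 1 library per mouse. The testes were decapsulated and the tubules extracted whole, so all cell types of the tubules were read together. Markers of Leydig cells and macrophages were read as well, with values given below. The sources used here do not state the allele, how the line was made and bred, or which mice were littermates.

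The albumin family, namely albumin, alpha-fetoprotein and afamin, are related plasma carrier proteins best known from the liver. At the other end of the stretch stands the cluster of secreted, integrin-binding phosphoproteins of mineralized tissue, which includes osteopontin (Spp1) and bone sialoprotein (Ibsp). The genes between have no shared function: they include epidermal growth factor-like ligands, parts of the secretory pathway, mitochondrial enzymes, kinases and regulators of the cell cycle. Position is what they have in common.

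Libraries held between 23480448 and 28558865 estimated counts. Expression is given in CPM (counts scaled to library size with TMM factors for composition) unless TPM (a level per transcript length) is named, and values of single libraries are listed in the order of mouse number. Where a pair of means is given, wild type comes first. In a principal component analysis, 35.53% of the variance fell on the first axis. Wild-type libraries lay at -38.32, -21.34 and -6.39 on it, and knockout libraries at 0.98, 15.92 and 49.15. The genotypes did not overlap there, and within each the values rose with mouse number. Nsun7 itself, on the same chromosome, measured 36.6, 35.7 and 37.2 CPM across the wild-type testes and 18, 17.8 and 25.2 across the knockout testes (log2 fold change -0.84, SE 0.15, edgeR adjusted p = 0.016). That call was lost in 4 of the 6 fits that left out 1 mouse, with a highest adjusted p of 0.093 (edgeR). Of the 6 other NSUN methyltransferase genes 0 were called (smallest p for Nsun3, 0.26, edgeR adjusted p = 0.65). The tissue carried its defining markers, the 10 listed genes of elongating spermatids summing to between 6936 and 10040 CPM per library. Of 10 listed genes of epididymal epithelium, Crisp1 had 649 counts in wild-type mouse 1 and 0 to 4 in every other library. Adam7 had 56 counts in wild-type mouse 1 and 0 to 1 elsewhere, and 4 of the 10 had 0 counts in all libraries. The list summed to 160 to 336 CPM per wild-type library and 299 to 536 per knockout library, most of it Lcn2. Lcn2 measured 302, 287 and 157 CPM across the wild-type testes and 531, 462 and 295 across the knockout testes. Its genotypes overlapped (log2 fold change 0.79, edgeR adjusted p = 0.553). Of the 2 tested, Lcn2 and Rnase10, 0 were called and 2 had log2 fold changes above 0. Leydig cell markers summed to 1898 to 3044 CPM per wild-type library and 2318 to 5119 per knockout library. Of the 10, 2 were called higher (Hsd3b1 and Hsd17b3), where the share over all genes was 0.233%. Log2 fold changes were above 0 for 9 of the 10 (median 0.58, against 0.01 over all genes). Macrophage markers summed to 229 to 303 and 245 to 420 CPM, with 0 of 10 called and 9 of 10 above 0 (median log2 fold change 0.24). The part of epididymal, Leydig and macrophage cells in the values below was not tested. In whole tissue, fewer cells of a type and less RNA per cell cannot be told apart.

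The called members sat apart from each other, mostly with uncalled genes between them. Of the 52 tested members 8 passed edgeR's quasi-likelihood test at an adjusted p of 0.05, against 0.567% of all 21002 genes tested. Called higher were 5 members (Afm, Zfp951, Tmem150c, Shroom3 and Sdad1; 0.233% of all genes were called higher), and 3 were called lower (Spp1, Ibsp and Parm1; 0.333% of all genes). DESeq2 called the same 8 (0.829% of all genes it tested) and limma voom 6 (0.486%), without Sdad1 and Ibsp. The median log2 fold change was 0.11 over the 52 members and 0.01 over all genes, and of the 44 members not called 43 lay within 0.5 of 0. Unadjusted p-values were under 0.05 for 14 members, where the share over all genes was 8.39%. The calls of Afm, Shroom3, Spp1 and Zfp951 were made in every alternative fit that was run, while those of Sdad1, Tmem150c and Ibsp were lost when single mice were left out.

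**Figure D1:**
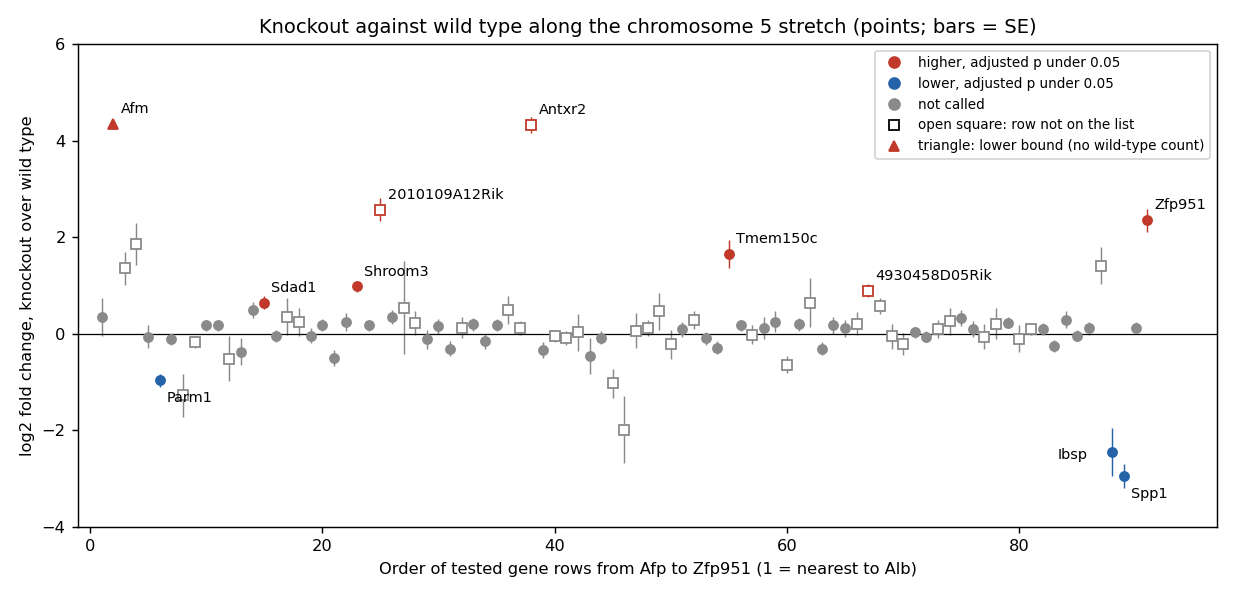
Log2 fold change of knockout over wild type (y axis, bars SE) for the 91 tested gene rows from Afp to Zfp951, in chromosome order (x axis). Filled symbols are listed members, open squares rows not on the list, and the triangle is the lower bound for Afm, which had no wild-type count. Called rows are spread over the stretch, from place 2 (Afm) to place 91 (Zfp951), and Ibsp and Spp1 are next to each other at places 88 and 89.

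The upstream sequences of 4 called members are shown so that their annotated starts can be seen, and Shroom3 is shown with 2 starts because the values of several of its transcripts are given below. Each is the 250 bases before a RefSeq start in GRCm38.p6, an older build than the mm39 named for the counts, printed 5′ to 3′ on the strand of the gene. Of the 59 members 50 had such an entry. The RefSeq start lay 17, 2, 4, 0 and 7 bases from the GENCODE M21 start of the transcript named, in the order printed. Capitals mark matches on either strand to 4 words. They are TATAAA, the TATA box, and CCAAT, the box of that name. The word GGGCGG is a GC box, and the word ACCACA is the core bound by Runt-domain factors.
Afm-201 start (chr5:90518699-90518948, + strand): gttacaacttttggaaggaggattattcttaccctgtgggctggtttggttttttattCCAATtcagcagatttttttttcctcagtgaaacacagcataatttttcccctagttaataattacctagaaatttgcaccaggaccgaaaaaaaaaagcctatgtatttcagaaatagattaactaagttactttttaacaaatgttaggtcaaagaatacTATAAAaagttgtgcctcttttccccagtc
Zfp951-202 start (chr5:104860069-104860318, - strand): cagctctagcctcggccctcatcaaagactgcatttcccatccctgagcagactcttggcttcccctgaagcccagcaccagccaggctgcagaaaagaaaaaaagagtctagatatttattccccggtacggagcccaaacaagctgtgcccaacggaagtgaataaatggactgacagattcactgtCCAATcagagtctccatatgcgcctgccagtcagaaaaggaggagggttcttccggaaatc
Shroom3-202 start (chr5:92809132-92809381, + strand): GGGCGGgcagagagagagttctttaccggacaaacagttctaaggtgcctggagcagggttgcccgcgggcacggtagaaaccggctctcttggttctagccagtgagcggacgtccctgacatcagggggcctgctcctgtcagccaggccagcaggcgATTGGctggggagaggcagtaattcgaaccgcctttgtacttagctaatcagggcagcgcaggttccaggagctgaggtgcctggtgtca
Shroom3-201 start (chr5:92897743-92897992, + strand): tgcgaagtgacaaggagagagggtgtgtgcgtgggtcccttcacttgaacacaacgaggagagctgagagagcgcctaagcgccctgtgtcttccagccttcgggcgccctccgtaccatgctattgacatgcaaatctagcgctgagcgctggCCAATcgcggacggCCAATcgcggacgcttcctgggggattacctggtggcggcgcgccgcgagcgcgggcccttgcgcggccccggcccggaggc
Spp1-201 start (chr5:104434861-104435110, + strand): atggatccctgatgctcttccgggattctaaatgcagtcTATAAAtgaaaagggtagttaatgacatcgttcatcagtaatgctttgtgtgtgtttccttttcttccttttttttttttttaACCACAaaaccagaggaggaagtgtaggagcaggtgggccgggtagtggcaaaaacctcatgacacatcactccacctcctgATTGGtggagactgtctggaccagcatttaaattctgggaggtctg
Afm carried TATAAA beginning 30 bases before its start, and 12.4% of all 32851 windows of the same length held that word; the Spp1 window held it 211 bases before its start. CCAAT, present in 33.8% of windows, occurred in all 5 printed windows, on the reverse strand for Spp1 and for the Shroom3-202 start. GGGCGG (32.7% of windows) was found in the Shroom3-202 window, and ACCACA (14% of windows) in that of Spp1, 128 bases before its start. These matches describe letters and not bound sites.

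Of the albumin family, Afm went from no reads to a low level while its relatives Alb and Afp stayed nearly silent. The tested rows that follow Afm, Pf4 and Cxcl1 of other families, were higher without overlap but not called, with values given below. Afm had 0 counts in each wild-type library and 49, 76 and 82 counts in the knockout libraries, or 1.98, 2.85 and 2.65 CPM. Every knockout library was above every wild-type one. With 3 counts allowed per wild-type library, afamin RNA was at least 20.3-fold higher in the knockout (2.49 ± 0.456 CPM, SD, n = 3; edgeR adjusted p = 3.51e-05); the bound covers counting error only. Alb had between 0 and 3 counts in every library and was not tested, and Gc, the vitamin D-binding member of the family outside the stretch, had 0 counts in all 6 libraries. Afp averaged 0.514 ± 0.0992 CPM without and 0.66 ± 0.219 with the knockout, and its libraries overlapped (adjusted p = 0.796, edgeR, n = 3 per genotype). The knockout reads of Afm were divided by kallisto between both of its annotated protein-coding transcripts, 58.3% to Afm-201 and 41.7% to Afm-202. The span of Gm42109 overlaps that of Afm on the other strand, and the counting is not stated to use strand. Overlap of exons was not examined, so reads of any exon shared by both may not be told apart.

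Markers of hepatocytes, where afamin is made, were low in both genotypes. The 14 of 15 listed genes with a row summed to 20.3 to 23.3 CPM per wild-type library and 22.4 to 26.4 per knockout library, most of it Apoh (mean over the 6 libraries 17.4 CPM), and 0 of the 6 tested were called. Of the defining markers, the transthyretin gene Ttr averaged 0.0711 and 0.0269 CPM, and Apoa1 0.133 and 0.113 CPM, wild type first. Of the 6 tested 5 had log2 fold changes above 0 (median 0.29), the largest that of the fetuin gene Ahsg, with 12, 6 and 13 counts in wild-type and 70, 13 and 42 in knockout libraries (1.86, edgeR unadjusted p = 0.00936, adjusted p = 0.383; in CPM the genotypes overlapped). The part of these markers in the rise of Afm was not tested. Of 5 listed genes that handle vitamin E, the ligand of afamin, 0 were called. The lipid exporter Abca1 had the smallest p among them (330 and 414 CPM; log2 fold change 0.33, edgeR adjusted p = 0.576).

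Osteopontin and bone sialoprotein transcripts, from genes next to each other among the tested rows, were both lower in the knockout. Spp1 measured 12, 13.1 and 9.36 CPM across the wild-type testes and 2.14, 0.9 and 1.42 across the knockout testes. No library of one genotype reached the other. Its mean fell 7.72-fold, from 11.5 ± 1.93 to 1.49 ± 0.624 CPM (SD, n = 3; log2 fold change -2.95, SE 0.25, edgeR adjusted p = 3.51e-05). Ibsp was far lower to begin with, with 26, 16 and 22 counts in wild-type and 2, 3 and 8 counts in knockout libraries. Its genotypes did not overlap either (log2 fold change -2.45, SE 0.50, edgeR adjusted p = 0.0425, n = 3 per genotype). The adjusted p of Ibsp went past 0.05 in 5 of the 6 fits without 1 mouse, to 0.291 without wild-type mouse 1, and knockout mouse 3 was the one mouse without which it was still called. The other members of the phosphoprotein cluster, Dmp1, Dspp and Mepe, had too few reads to be tested, with means of 1 count per library or less. Gm42793 overlaps Spp1 on the same strand.

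Sparcl1, the nearest listed gene before Ibsp and a secreted relative of the matrix protein SPARC, averaged 45.3 ± 6.01 CPM without and 48.9 ± 4.72 with the knockout (SD, n = 3; edgeR adjusted p = 0.803). Pkd2, the calcium-permeable channel polycystin-2 that follows Spp1, averaged 33.5 ± 2.63 and 36.4 ± 1.15 CPM (adjusted p = 0.758, edgeR). The listed genes on both sides of Ibsp and Spp1 were thus not called. Between Sparcl1 and Ibsp lay the unlisted row Gm31048, at 0.333 ± 0.121 and 0.903 ± 0.0963 CPM (SD, n = 3). It was higher without overlap but not called (log2 fold change 1.41, edgeR adjusted p = 0.201). After Pkd2 the next tested row was Zfp951, called higher. Of the 7 other polycystin genes 0 were called, with Pkdrej at the smallest p (0.51, edgeR adjusted p = 0.191). None of 9 tested osteopontin relatives and receptors was called in edgeR or DESeq2, and 0 had an unadjusted p under 0.05. The integrin chain Itgav, part of a receptor for osteopontin, averaged 47.0 and 54.0 CPM (log2 fold change 0.20), and the smallest p was that of Itga8 (-0.27, edgeR adjusted p = 0.64). Markers of bone and cartilage cells summed to 207 to 248 CPM per wild-type library and 167 to 222 per knockout library. Of the 7 tested 0 were called, and all 7 had log2 fold changes below 0 (median -0.16 on the TMM-scaled counts). Col1a1 was the most abundant (mean over the 6 libraries 101 CPM), and the osteocalcin gene Bglap2 had 0 counts in every library. The part of these markers in the fall of Spp1 was not tested.

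**Figure D2:**
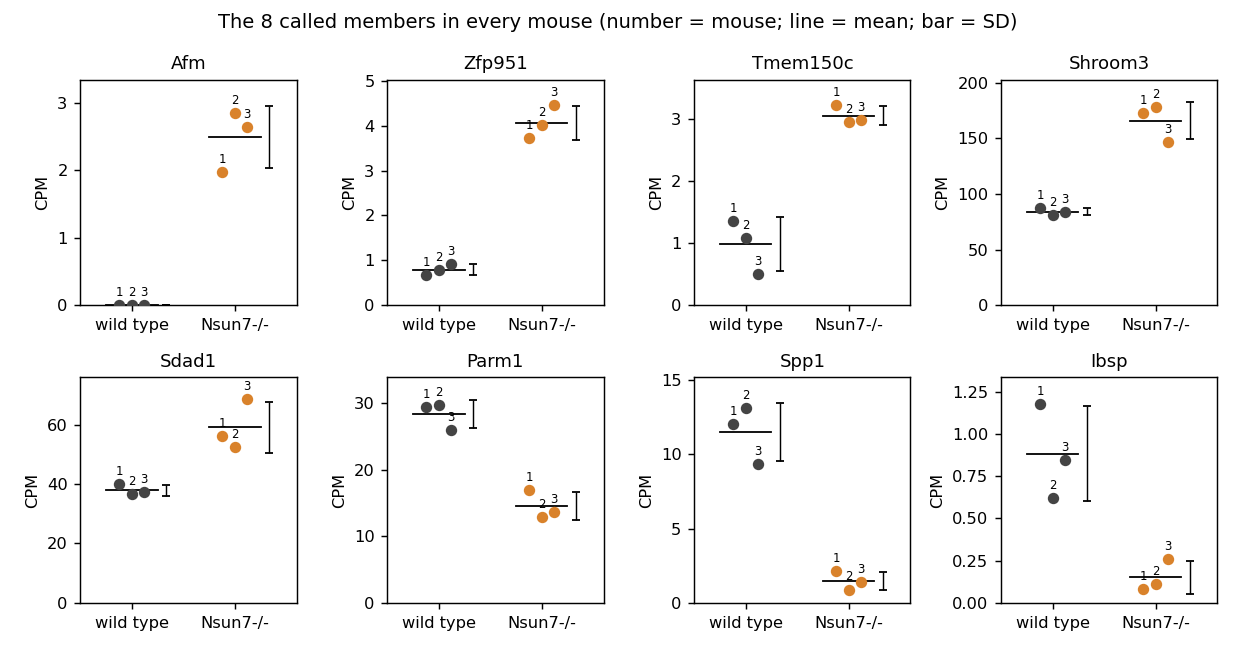
CPM (y axis, from 0, its own scale in each panel) of the 8 called members in wild-type and Nsun7-/- mice; each point is 1 library, numbered by mouse, with the mean as a line and the SD as a bar at the side. In all 8 panels the genotypes do not overlap; Shroom3 is near 84.2 in wild type and 166 in the knockout, and Spp1 near 11.5 and 1.49.

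Zfp951, a zinc finger gene of the nuclear regulators, rose from a low level. It measured 0.679, 0.775 and 0.925 CPM across the wild-type testes and 3.72, 4.01 and 4.46 across the knockout testes, a mean 5.13 times the wild-type mean (log2 fold change 2.35, SE 0.24, edgeR adjusted p = 0.000125). The knockout values were all several times those of wild type. The larger part of the difference lay on the protein-coding transcript Zfp951-202, with 5.1, 1.92 and 1.92 estimated counts in wild-type and 59.73, 51.59 and 77.82 in knockout libraries. Its share of the gene's counts was 15% and 56.2%. The noncoding Zfp951-203, whose share was 74.6% and 43.8%, averaged 14.8 ± 4.04 and 49.2 ± 15.2 counts (SD, n = 3). Zinc finger genes have close relatives, so reads may have been shared with them. The other nuclear regulators were not called: Prdm8, a PR-domain regulator (-0.34), Lin54, a DNA-binding part of the cell cycle complex MuvB (0.12), and Aff1, a scaffold of transcription elongation (0.10), as log2 fold changes. Of 11 other genes of that cell cycle complex and its partners 0 were called, and Mybl2 had the smallest p (-0.21, edgeR adjusted p = 0.662).

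Shroom3 encodes an actin-binding protein that drives apical constriction of epithelial cells. The gene measured 87.7, 81.2 and 83.7 CPM across the wild-type testes and 173, 178 and 147 across the knockout testes. The lowest knockout value was well above the highest wild-type value. The mean rose 1.97-fold (log2 fold change 0.98, SE 0.12, edgeR adjusted p = 0.000772, n = 3 per genotype). Of 5 relatives and partners, Shroom1, Shroom2, Shroom4, Rock1 and Rock2, none was called, and Rock2 had the smallest p (0.10, edgeR adjusted p = 0.84).

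The Shroom3 transcripts differed in their values, and those named here were singled out after these were seen. For Shroom3-202, of 6401 bases, kallisto estimated 143.5, 150.6 and 315 counts across the wild-type testes and 1747, 1925 and 1487 across the knockout testes. Its lowest knockout value was several times its highest wild-type value (log2 fold change 2.95, SE 0.34). Shroom3-201, which starts downstream of it at the second Shroom3 start printed above, averaged 653 ± 140 and 758 ± 146 counts (SD, n = 3), with overlapping libraries (0.05, SE 0.16). Shroom3-211, of 5742 bases, which had the highest count summed over the 6 libraries but a lower knockout mean than Shroom3-202, averaged 890 ± 117 and 1672 ± 119 counts (0.73, SE 0.17). Its libraries did not overlap between genotypes. Shroom3-204, which starts farther upstream, averaged 230 ± 45.4 and 154 ± 22.0 counts (-0.73, SE 0.22). As a share of the gene's counts, Shroom3-202 ranged from 7.19% to 14.5% among wild-type mice and from 32.7% to 40.9% among knockout mice. The share of Shroom3-201 ranged from 25.6% to 35.3% and from 13.8% to 18.6%. Shroom3-210, a noncoding transcript annotated across the start of Shroom3-202, averaged 5.34 ± 4.93 and 33 ± 5.2 counts. None of these transcripts passed the transcript test, where edgeR's adjusted p was 0.134 for Shroom3-202, and the difference in change between transcripts was not tested. Reads shared by transcripts are divided by kallisto's model, so these splits carry an error that the SDs may not hold in full. Gm20500 overlaps Shroom3 on the same strand, and Mir1961 and 4932430I15Rik on the other.

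**Figure D3:**
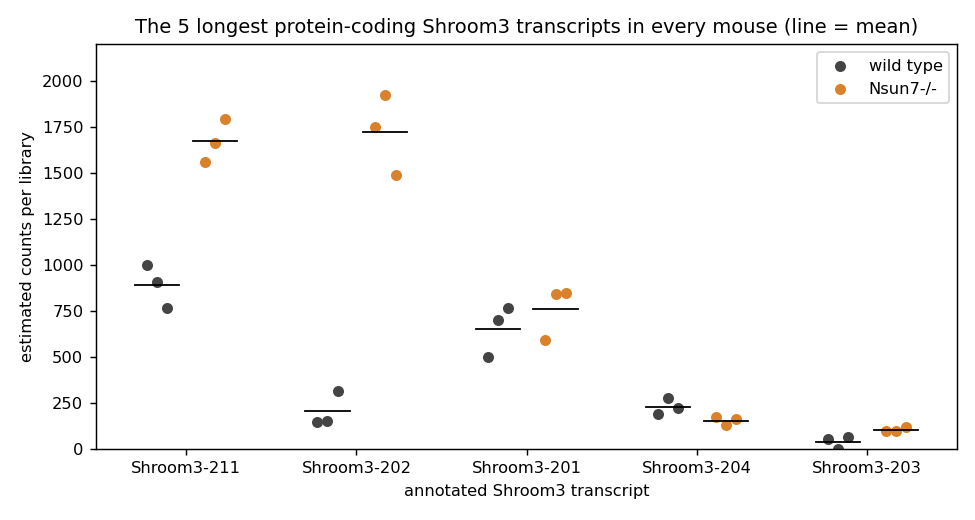
Estimated counts per library (y axis) of the 5 longest protein-coding Shroom3 transcripts (x axis) in wild-type (grey) and Nsun7-/- (orange) mice, 1 point per mouse, line at the mean. Shroom3-202 goes from a mean of 203 to 1720 counts, whereas Shroom3-201 overlaps between the genotypes.

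Across all members 164 of 308 annotated transcripts were tested and 0 passed edgeR's adjusted threshold (0.0272% of all 58773 transcripts did). Unadjusted p-values were under 0.05 for 24 of the 164, where the share over all transcripts was 4.76%. DESeq2 was not run on transcripts, and limma voom called 0. Member transcripts therefore serve only to show where in a gene the reads lay. For Parm1 and Ibsp all reads were on a single annotated transcript, for Tmem150c 70.7% and 76.3% were on Tmem150c-201 (wild type first), and for Spp1 87.6% and 71.7% were on Spp1-201. Sdad1-201, the main Sdad1 transcript, averaged 643 ± 81.8 and 1145 ± 282 counts (SD, n = 3). One uncalled member had a transcript that was singled out after its values were seen. Coq2, the prenyltransferase of coenzyme Q synthesis, was not called as a gene (0.19), but Coq2-202, 1 of its nonsense-mediated decay transcripts, had 4.98, 0 and 0 estimated counts across the wild-type testes and 42.42, 74.9 and 58.89 across the knockout testes (edgeR adjusted p = 0.612). Its share of Coq2 counts was 0.42% and 11.7%. The other such transcript, Coq2-204, had values in the opposite order, 72.3 ± 33.9 and 45.9 ± 10.7 counts (SD, n = 3), with overlapping libraries and a share of 18.3% and 9.13%. The other 9 genes of coenzyme Q synthesis were not called, with Coq5 lowest in p (-0.39, edgeR adjusted p = 0.383).

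Membrane proteins showed 1 rise, 1 fall and no call in the other 4 of 6. Parm1, a mucin-like membrane protein, measured 29.4, 29.7 and 25.9 CPM across the wild-type testes and 16.9, 12.9 and 13.7 across the knockout testes. The genotypes were separate, and the knockout mean was 51.1% of the wild-type mean (log2 fold change -0.97, SE 0.14, edgeR adjusted p = 0.00421). On log2 TPM with a pseudocount of 1 Parm1 was not called (-0.55, limma adjusted p = 0.395). Tmem150c, a multi-pass membrane protein, measured 1.36, 1.09 and 0.501 CPM across the wild-type testes and 3.23, 2.96 and 2.98 across the knockout testes, low in both but without overlap (log2 fold change 1.65, SE 0.30, edgeR adjusted p = 0.0229). Its adjusted p passed 0.05 in 4 of the 6 fits that left out a mouse, to 0.0694 and 0.0695 (wild-type mice 2 and 3) and to 0.0612 and 0.0532 (knockout mice 2 and 3). The span of Tmem150cos overlaps that of Tmem150c on the other strand, so reads of any exon shared by both genes may not be told apart. Its relatives Tmem150a (0.16, edgeR adjusted p = 0.763) and Tmem150b were not called.

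The other membrane proteins were steadier. Art3, an ADP-ribosyltransferase family member attached to the cell surface, averaged 203 ± 12.1 and 195 ± 16.2 CPM (SD, n = 3). The lysosomal receptor Scarb2 averaged 53.7 ± 4.14 and 60.8 ± 6.84 CPM. Naaa, a lysosomal amidase, measured 8.88, 9 and 10.1 CPM across the wild-type testes and 16.3, 12.2 and 10.8 across the knockout testes, separate but not called (log2 fold change 0.49, edgeR adjusted p = 0.414). Naaa was the uncalled member of largest positive log2 fold change, and Stbd1, a glycogen-binding protein, that of largest negative (-0.50, edgeR adjusted p = 0.383). Stbd1 measured 12, 12.6 and 11.7 CPM against 9.74, 9.41 and 6.53, also without overlap.

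Among RNA-binding and ribosome assembly proteins Sdad1, which acts in ribosome biogenesis, was called. It measured 39.9, 36.5 and 37.3 CPM across the wild-type testes and 56.1, 52.4 and 68.6 across the knockout testes, a 1.56-fold rise in the mean with knockout mouse 3 highest (log2 fold change 0.64, SE 0.13, edgeR adjusted p = 0.0393). Without wild-type mouse 1, 2 or 3 its adjusted p was 0.164, 0.244 or 0.194, and without knockout mouse 2 it was 0.0563 (edgeR). Gm43599 and Gm23031 overlap Sdad1 on the other strand. G3bp2, a stress granule protein, averaged 88.7 ± 1.62 and 99.5 ± 5.25 CPM (SD, n = 3) and was not called. Neither were Hnrnpd, which binds AU-rich elements of mRNA (0.09), and its paralog Hnrnpdl (-0.10). Of 11 other AU-rich element proteins and 7 stress granule proteins 0 were called, with Zfp36 (-0.21, edgeR adjusted p = 0.646) and Caprin1 (0.20, edgeR adjusted p = 0.671) at the smallest p.

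Several kinds of member were scarcely present. The epidermal growth factor-like ligands Ereg, Areg and Btc had between 0 and 5 counts in each library, too few to test. Receptors of their ErbB pathway were present: Egfr averaged 12.7 and 15.9 CPM and Erbb2 16.4 and 20.2 CPM, wild type first. Erbb4 averaged 7.73 and 8.93 CPM, and Erbb3 was lower without overlap, at 4.04 and 2.71 CPM (-0.57, edgeR adjusted p = 0.562). Egf had the smallest p of the 9 tested genes of that pathway (0.41, edgeR adjusted p = 0.512), none of which was called. Fgf5, a fibroblast growth factor, had 1 count in all, and the kinase gene Prkg2 and the Ras-association gene Rassf6 had at most 4 per library. A gene at 0 in a library may still have been present at up to 3 counts, or 0.0971 to 0.136 CPM depending on the library, a limit for counting error only. Bmp3, a growth factor of the TGF-beta family, averaged 0.652 ± 0.0321 and 0.471 ± 0.116 CPM (SD, n = 3) and was not called.

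The remaining groups held no called gene. All 5 mitochondrial proteins (Mthfd2l, Coq2, Mrpl1, Mrps18c and Nudt9) had log2 fold changes within 0.5 of 0, with a median of -0.04. The 5 tested kinases, phosphatases and Ras exchange factors (Bmp2k, Mapk10, Ptpn13, Ppef2 and Rasgef1b) had a median of 0.10, with the protein phosphatase gene Ppef2 at -0.37 and the phosphatase Ptpn13 at 0.23. In the secretory pathway and lipid group (Uso1, Sec31a, Paqr3, Cds1, Hsd17b11 and Stbd1) the median was also 0.10, and the COPII coat gene Sec31a averaged 234 ± 19.2 and 263 ± 13.3 CPM. Of 11 other COPII genes 0 were called (Sec31b -0.31, edgeR adjusted p = 0.605). Of the protein turnover genes, the ubiquitin ligase Rchy1 (-0.12), the BTB-Kelch protein Klhl8 (-0.26), the autophagy scaffold Wdfy3 (-0.06) and the COP9 signalosome subunit Cops4 (0.25) were not called, nor were 9 other signalosome subunits (Cops9 -0.29, edgeR adjusted p = 0.645). For the cell cycle and genome genes the values were 0.17 for the cyclin Ccni, 0.35 for the cyclin Ccng2, 0.17 for the DNA helicase Helq and -0.04 for the nucleoporin Nup54. Anxa3, an annexin (-0.31), Arhgap24 (0.33), the basement membrane protein Fras1 (0.15), the heparanase Hpse (-0.31), and Enoph1, Naa11 and Ccdc158 (-0.29, 0.18 and 0.24) completed the list.

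Spread between mice of 1 genotype was small for most members. The pooled SD of log2 CPM within genotypes, with a small prior count added, had a median of 0.16 over 52 members, from 0.05 for Ccni to 0.50 for Ibsp. The prior count lessens the SD of members with few counts, such as Afm. Of the 44 uncalled members, knockout mouse 3 gave the highest of the 3 knockout values for 21, mouse 1 for 17 and mouse 2 for 6. Wild-type mouse 3 gave the highest wild-type value for 20, mouse 1 for 13 and mouse 2 for 11. Cops4 had its highest value in knockout mouse 3, at 45.8, 52.2 and 85.4 CPM across the knockout testes and 46.8 to 58.4 across the wild-type testes. The genotypes did not overlap for 22 of the 52 members, the 8 called ones included, where the share over all genes was 14.3%.

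By TPM the most abundant members were Art3, Ccni and Sec31a. Art3 measured 184, 236 and 265 TPM across the wild-type testes and 260, 243 and 292 across the knockout testes. Ccni measured 112, 165 and 186 TPM against 235, 234 and 248, and Sec31a 67.2, 86.6 and 102 TPM against 99.4, 112 and 123. All 3 were lowest in wild-type mouse 1. In that library the RNA component of RNase MRP, Rmrp, took 33.3% of the TPM total, against 22.2% and 15.7% in wild-type mice 2 and 3 and 11.4% to 17.5% among the knockout mice, and on log2(TPM + 1) the median difference of all genes was 0.24. The part of Rmrp in these TPM values was not tested. In CPM Ccni averaged 248 ± 9.95 and 279 ± 7.12 (SD, n = 3), and it was not called (log2 fold change 0.17, edgeR adjusted p = 0.67). Spp1, at a mean of 9.96 and 2.03 TPM, and Afm, at 0 and 1.65 TPM, lay far below these.

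**Figure D4:**
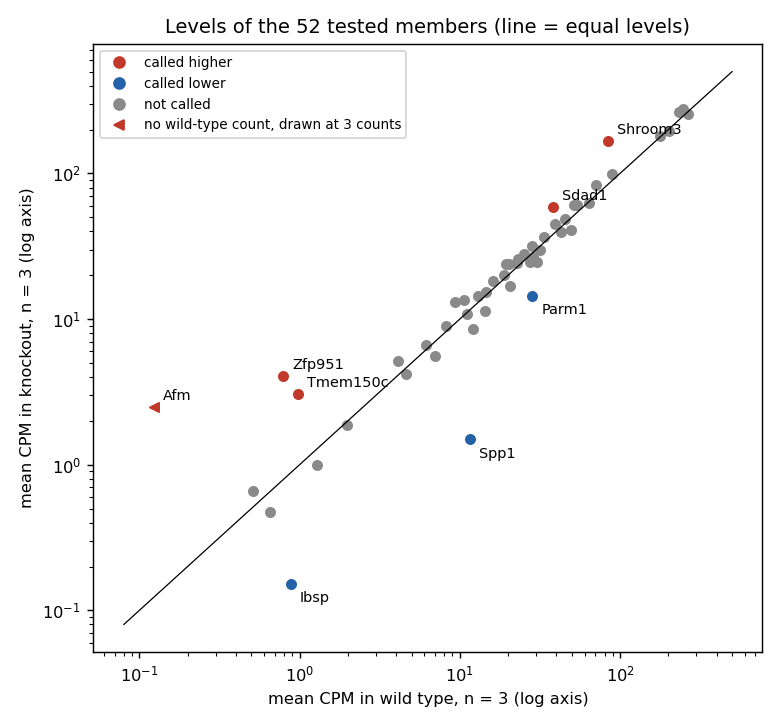
Mean CPM in the knockout (y axis, log) against mean CPM in wild type (x axis, log) for the 52 tested members; red and blue points were called higher and lower, grey points were not called, and Afm is drawn at 3 counts per library in wild type. The grey points follow the line of equal levels from under 1 to over 200 CPM, and the called members of largest fold (Afm, Zfp951, Tmem150c, Spp1 and Ibsp) lie at 11.5 CPM or less in both genotypes.

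Rows of the same interval that are not on the list were read as well. GENCODE M21 places 305 genes from Alb to Zfp951, of which 155 had a row and 91 were tested, 39 of them unlisted. Of the 91 rows 11 were called (12.1%), and of the 1200 other tested genes of chromosome 5 the number was 19 (1.58%), beside 0.567% of all genes. The rule used these calls, so the difference in shares is a description. The 3 unlisted calls were all higher in the knockout. Antxr2, an anthrax toxin receptor gene between Naa11 and Prdm8, averaged 4.45 ± 0.167 and 88.9 ± 15.4 CPM (SD, n = 3; edgeR adjusted p = 3.31e-09). The uncharacterized protein-coding row 2010109A12Rik, 2 places after Shroom3, measured 0.589, 0.853 and 1.04 CPM across the wild-type testes and 4.69, 5.02 and 5.24 across the knockout testes (log2 fold change 2.57, SE 0.24, edgeR adjusted p = 6.06e-05). The antisense RNA 4930458D05Rik averaged 8.17 ± 0.161 and 15.1 ± 0.775 CPM (SD, n = 3; log2 fold change 0.89, SE 0.14, edgeR adjusted p = 0.00616); its reads cannot be told from those of the gene it overlaps. The other 36 unlisted rows were not called. Unadjusted edgeR p-values were under 0.05 for 11 of the 39 unlisted rows, called ones included, where the share over all genes was 8.39%. The genotypes did not overlap for 13 of the 39, 9 higher and 4 lower in the knockout (14.3% of all genes). Pf4 (1.35, edgeR adjusted p = 0.138) and Cxcl1 (1.86, edgeR adjusted p = 0.0966), the tested rows that follow Afm, were among those higher.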

How the data were processed

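Total RNA of testes from 3 wild-type and 3 Nsun7-/- mice was depleted of ribosomal and globin RNA and sequenced, per the labels' protocols. The submitters' processing notes name kallisto 0.50.1 and mm39; the sources used here do not state the annotation release, the strand setting or the rule from transcripts to genes. Estimated counts and TPM, per transcript and summed per gene symbol, are the values the authors deposited. Gene counts are whole numbers and are not scaled for depth; they lay within 1 count of the transcript sums for 57 of 58 members matched.

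The test of counts was run in edgeR 4.0.16 (R 4.3.3) over all 21002 genes and, rounded, all 58773 transcripts passing filterByExpr (minimum count 10, minimum total 15): TMM, robust quasi-likelihood test, genotype as sole term, Benjamini-Hochberg adjusted p threshold 0.05. SE was taken as the absolute log2 fold change over the root of the F statistic. Nothing in the labels ties mice of different genotypes together. Alternatives used limma 3.58.1 and DESeq2 1.42.0. Scripts were tested on simulated data. GENCODE M21 (GRCm38) gave order, overlaps of whole gene spans and transcript names. The members and the gene lists were chosen with earlier results of these data known. Every called member is named with values per library, every other member by group, and from each list the gene of smallest p, since none was called.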

Additional observations from a re-analysis of the deposited data

How the results depend on the processing

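Afm, Shroom3, Spp1 and Zfp951 were called in all 17 other fits, and the 8 called members kept their sign in each. The number of called members was 5 on log2(TPM + 1), on log2(TPM + 0.1) and on median-centred log2(TPM + 1), and 5 to 7 without 1 mouse. The 5 were found without wild-type mouse 2, wild-type mouse 3 or knockout mouse 2, where Sdad1, Tmem150c and Ibsp were lost. Sdad1 and Ibsp were also lost in voom (0.0525 for both), and Ibsp was under the filter at a mean CPM of 1. Leaving out wild-type mouse 1 and knockout mouse 3 together left 7; this fit and the centred TPM were chosen after seeing the data. Over all genes the count was 180 without a low-count filter, 203 in DESeq2, 61 on log2(TPM + 1), 68 on log2(TPM + 0.1), 63 on centred TPM, and 67 to 166 without 1 mouse (67, 78 and 78 without wild-type mouse 1, 2 or 3). Higher calls were 49 of 119 by edgeR, 44 of 61 and 48 of 68 on the TPM scales, and 19 of 63 on centred TPM. Among rows from Alb to Zfp951, 7 were called on centred TPM and 8 to 11 without 1 mouse. Without 1 mouse 0 genes of the related lists and 0 member transcripts were called. Nsun7 was at -0.46 (adjusted p = 0.395), -0.50 (0.394) and -0.75 (0.0877) on log2(TPM + 1), log2(TPM + 0.1) and centred TPM in limma, and from -1.03 to -0.76 without 1 mouse.

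Mouse number as a replicate block gave 331 calls over all genes, the same 8 members, and 1 call in the related lists, Pkdrej (0.50, edgeR adjusted p = 0.0149). Deviations of equal-numbered mice correlated at 0.177, -0.005 and 0.199, and those of mice with unequal numbers at -0.235 to 0.056. The values 0.177 and 0.199 were thus the highest of all pairs. Whether the numbers pair the mice was not tested, and genotype was kept as the sole term.

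Some uncalled list genes changed sign. On log2(TPM + 1) and log2(TPM + 0.1) these were Cops9 (0.05 and 0.05), Itga8 (0.26 and 0.32), Mybl2 (0.02 and 0.02) and Zfp36 (0.09 and 0.10). Their edgeR values were -0.29, -0.27, -0.21 and -0.21, and the median of all genes on these scales was 0.240 and 0.299. On centred TPM, Nsun3 (-0.15) and Rock2 (-0.00) changed sign. Rock2 did so too without wild-type mouse 1 and knockout mouse 3 together (-0.07), and it ranged from -0.04 to 0.19 without 1 mouse. Transcript Shroom3-201 ranged from -0.05 to 0.14 without 1 mouse, below 0 without wild-type mouse 1 or knockout mouse 2. Of the 44 uncalled members 13 changed sign on either TPM scale. The cause was not tested. Depth limits the untested members, with 0 to 5 counts per library.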
